A study of Mus musculus with 14 samples.

Results

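The constitutive proteasome subunits were followed as transcripts in mouse bone marrow-derived macrophages that met a first and then a second Toll-like receptor agonist. Members were chosen by name: Psma1 to Psma7, Psmb1 to Psmb7, Psmc1 to Psmc6 and Psmd1 to Psmd14, with 1 entry of the expression table each. All 34 genes were found among the 39721 entries of the table, 14 of the core particle and 20 of the regulatory particle, and all 34 passed the filter on low values. The cells were grown from marrow of male mice (C57Bl6/J, aged 6 to 12 weeks) with L929-conditioned medium, a source of the macrophage growth factor CSF-1. They received PBS or 100 ng/mL Poly I:C, a synthetic double-stranded RNA, for 24 h. After washing they received PBS or bacterial lipopolysaccharide (LPS, whose dose as a second agonist was not stated) for 2 h or 6 h. This gave 8 groups: PBS then PBS, PBS then LPS, Poly I:C then PBS, and Poly I:C then LPS, each at 2 h and at 6 h. The 2 groups of PBS then PBS had 1 library each and the other 6 groups had 2, 14 libraries in all. No source used here says whether replicates came from separate mice or cultures, so p-values measure the spread between these libraries, which may be technical.

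The proteasome degrades proteins that carry ubiquitin chains. Its core particle is a barrel of stacked rings. The outer alpha rings, made of the Psma gene products, form the gate, and the inner beta rings, made of the Psmb products, hold the active sites of Psmb5 (chymotrypsin-like), Psmb6 (caspase-like) and Psmb7 (trypsin-like). The regulatory particle caps the barrel: a base of Psmc ATPases unfolds substrates, and a lid of Psmd subunits with the base's Psmd1, Psmd2 and Psmd4 receives the ubiquitin chain and removes it. In cells exposed to interferon, Psmb8, Psmb9 and Psmb10 replace the 3 constitutive active subunits to form the immunoproteasome, known for making peptides for MHC class I. The transcription factor Nfe2l1, which binds antioxidant response-type elements, is known for raising proteasome subunit genes together when proteasome activity is short.

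Promoter sequence was matched for 28 of the 34 members, with 30 windows of 300 bases each around a RefSeq start site on GRCm38.p6, running from 250 bases before the start to 50 bases after it. The motifs searched on both strands were TGACNNNGC (antioxidant response type), CCAAT and CCGGAAG (ETS type). They do not contain one another. Promoter stretches of 140 bases that end just before the start site are shown for members whose transcripts are followed below in every library, with motif matches in capitals. Psmb5 and Psmb6 are shown because both hold TGACNNNGC and their transcript levels differed in course, Psmd10 because it holds CCAAT and had the widest range of levels among the members, and Psmd11 because it holds CCGGAAG. The Psmb5 stretch is chr14:54617996-54618135 on the minus strand, the Psmb6 stretch chr11:70525217-70525356 on the plus strand, the Psmd10 stretch chrX:140956712-140956851 on the minus strand and the Psmd11 stretch chr11:80428475-80428614 on the plus strand.
Psmb5: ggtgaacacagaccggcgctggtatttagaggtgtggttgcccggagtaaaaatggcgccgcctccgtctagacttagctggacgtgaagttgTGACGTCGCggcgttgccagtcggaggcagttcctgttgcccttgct
Psmb6: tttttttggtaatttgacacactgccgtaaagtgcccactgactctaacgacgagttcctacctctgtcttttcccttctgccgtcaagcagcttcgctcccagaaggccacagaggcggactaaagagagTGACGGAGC
Psmd10: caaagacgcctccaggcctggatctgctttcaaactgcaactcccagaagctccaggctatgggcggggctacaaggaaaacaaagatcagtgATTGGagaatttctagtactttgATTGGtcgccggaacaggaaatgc
Psmd11: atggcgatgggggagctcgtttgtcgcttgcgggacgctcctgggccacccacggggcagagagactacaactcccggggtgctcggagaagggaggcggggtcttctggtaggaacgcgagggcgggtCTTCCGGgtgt

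CCGGAAG was found in 10 of 18 windows of regulatory particle genes (55.6%) and in 1 of 12 windows of core genes (8.33%). Its share was 8.86% of all 32851 windows of the table and 18.0% of the windows of genes tested here. The regulatory genes with a match were Psmc1, Psmc2, Psmc6, Psmd2, Psmd4, Psmd6, Psmd11, Psmd12 and Psmd13, and the core gene was Psma6. CCAAT went the other way, with 6 of 12 core windows and 5 of 18 regulatory windows, against 37.4% of all windows. TGACNNNGC was in 16.7% of core windows and 16.7% of regulatory windows, near its share of 14.7% of the windows of genes tested here. Of all windows 12.4% held it. Its genes were Psmb5, Psmb6, Psmc6, Psmd9 and Psmd12. A further motif, of the interferon-stimulated response element type, was searched after the values had been seen and was in 3 of the 30 windows (Psmb3, Psmd4 and Psmd9), against 3.44% of all windows. These matches are descriptions of letters in a window and not of binding.

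For 9 of the 34 members (Psma4, Psma5, Psmb3, Psmb5, Psmb6, Psmc1, Psmd2, Psmd11 and Psmd14) a near-identical transcript of another gene was found, with 18 copies in all. Of these, 12 had an entry in the table, 1 of them, that of Psmd11, at 1 FPKM or more, and the other 6 had no value. Depth was not given as counts. The value of 1 fragment, read from the spacing of low FPKM values (fragments scaled by transcript length and library size), differed by up to 3.07-fold between libraries. The summed FPKM of 9 macrophage markers was 13880 to 20640 in the 6 libraries that began with PBS and 5369 to 8669 in the 8 that began with Poly I:C. All 9 were above 0 in every library, and Lyz2 made up most of the sum (11280 of 13880 in PBS then PBS at 2 h). With Poly I:C before PBS at 2 h Fcgr1 rose by 3.95 while Itgam, Lyz2, Cd14, Emr1 and Csf1r fell by 2.23, 1.79, 1.42, 1.18 and 0.71 on the log2 scale. Fewer cells of a type and less RNA per cell cannot be told apart in such bulk samples. Of 5 T cell markers Cd3e, Cd3g, Cd8a and Trac were at 0 in every library, and the list's sum of 1.95 to 7.31 FPKM was that of Cd4, which rose by 1.12 with Poly I:C before LPS at 2 h. Of 5 neutrophil markers S100a9 and Elane were at 0 everywhere and the sum was 0.257 to 7.01 FPKM, highest in Poly I:C then LPS at 6 h, where S100a8 rose by 2.28 with LPS after Poly I:C. Of 3 mast cell or basophil markers Cpa3 and Fcer1a were at 0 and the sum was at most 0.252 FPKM. Dendritic cell markers summed to 0.143 to 10.2 FPKM and were lowest in the PBS-then-PBS libraries, and stromal markers summed to 13.6 to 103 FPKM. The part of these cell types in the results was not tested. Of 6 genes often used as references, 4 fell with Poly I:C before PBS at 2 h (Hprt, Ppia, Pgk1 and Actb, by 2.18, 1.47, 1.36 and 0.64), Polr2a rose by 0.87 and Tbp was not called, while the median core member was higher by 0.53 there.

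The replicates of PBS then LPS at 2 h stood apart from each other. All 34 members were lower in replicate 2 than in replicate 1, with a median difference of -0.44 on the log2 scale, while the median over all tested entries was -0.05. In the other 5 groups with replicates the members' median difference was between 0.00 and 0.10. For the members, counts of comparisons that use PBS then LPS at 2 h are therefore given with and without each of its libraries. Markers and genes of other lists are given with both libraries only.

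Core particle transcripts were more abundant per length than regulatory particle transcripts in every library, and this gap was widest in PBS then LPS at 6 h. The median FPKM of the core members was 99.4 in PBS then PBS at 2 h and 108 at 6 h, where the regulatory median was 49.0 and 52.8. In PBS then LPS at 6 h the core median was 188 and 201 FPKM in the 2 libraries and the regulatory median 75.7 and 75.8. The 2 kinds of core ring differed there. The alpha ring median was 202 and 228 FPKM, beside 100.3 in PBS then PBS at 6 h. The beta ring median was 136 and 138 FPKM, beside 113 in PBS then PBS at 6 h. In Poly I:C then LPS at 6 h the core median was lower, at 158 and 162, and the regulatory median higher, at 89.6 and 91.2. Both medians were lowest in the PBS-then-PBS libraries. By group mean the core median was highest in PBS then LPS at 6 h, where it overlapped with Poly I:C then LPS at 2 h (172 and 188), and the regulatory median was highest in Poly I:C then LPS at 2 h (89.9 and 97.2), where it overlapped with the same treatment at 6 h.

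The difference of the particles' medians on the log2(FPKM + 1) scale, core minus regulatory, was 1.00 and 1.02 in PBS then PBS at 2 h and 6 h. It was 1.30 and 1.39 in the libraries of PBS then LPS at 6 h, and 0.81 and 0.82 in Poly I:C then LPS at 6 h. These groups did not overlap with each other. The remaining libraries lay between 0.83 and 1.06, and the pooled SD between replicates was 0.0752. An exact permutation test of 2 against 2 libraries cannot give a two-sided p below 0.333, so no test is given for this difference. Leaving out Psmd5, Psmd9 and Psmd10, which help to assemble the base and are not part of the finished particle, the range over libraries was 0.69 to 1.34, again highest in PBS then LPS at 6 h. Poly I:C then LPS at 6 h was then no longer the lowest (0.76 in both libraries, beside 0.75 and 0.94 in PBS then PBS and 0.74 and 0.69 in PBS then LPS at 2 h). The ratio of summed FPKM, core over regulatory, was also highest there (1.83 and 1.94), but it placed Poly I:C then LPS at 6 h next (1.71 and 1.73) and PBS then PBS at 1.26 and 1.31. Without Psmb6 and Psmd8, the most abundant member of each particle, the ratio was 1.86 and 1.99 in PBS then LPS at 6 h and 1.47 and 1.48 in Poly I:C then LPS at 6 h. The wider difference of medians in PBS then LPS at 6 h did not extend to the beta ring. Its median log2 level was 7.10 and 7.12 there, against 6.26 and 6.26 for the regulatory members. In PBS then PBS at 6 h these medians lay further apart, at 6.84 and 5.75.

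**Figure D1:**
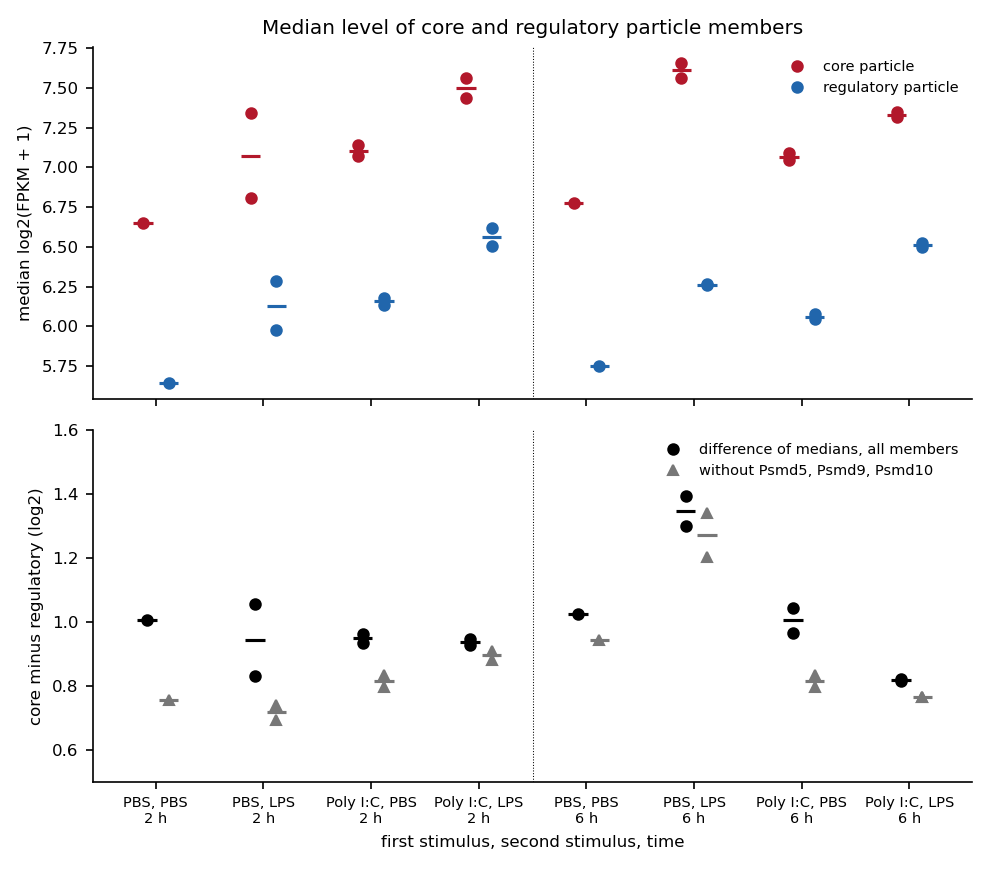
Median log2(FPKM + 1) of the 14 core (red) and 20 regulatory (blue) members in each library, upper panel, and their difference, lower panel (triangles without Psmd5, Psmd9 and Psmd10), by group; each point is 1 library and each short line a group mean. The difference sits at 1.30 and 1.39 in PBS then LPS at 6 h and between 0.81 and 1.06 in all other libraries.

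All 34 members together took 0.559% to 0.763% of summed FPKM, with the median library at 0.627%. The share was 0.575% and 0.566% in PBS then PBS at 2 h and 6 h. It was 0.589% and 0.570% in Poly I:C then LPS at 2 h, and 0.697% and 0.763% in that treatment at 6 h. The summed FPKM of all entries itself ran from 462723 in PBS then PBS at 2 h to 964258 in Poly I:C then LPS at 2 h. Higher FPKM of the members was thus not always a higher share. Within each particle the members were far from equal. Psmb6 was the most abundant core member at a mean of 481 FPKM over the 14 libraries and Psmb7 the least at 117. Psmd8 was the most abundant regulatory member at 271 FPKM and Psmd5 the least at 14.7. Among the 6 ATPases the means ran from 66.0 FPKM (Psmc6) to 101 FPKM (Psmc1). The ratio of the highest to the lowest library was 6.33 for Psmd10, 5.12 for Psma6, 4.44 for Psmb6 and 4.16 for Psma5, and it was under 1.7 for Psma7, Psmb1, Psmb3, Psmb5, Psmc3, Psmd3 and Psmd13.

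**Figure D2:**
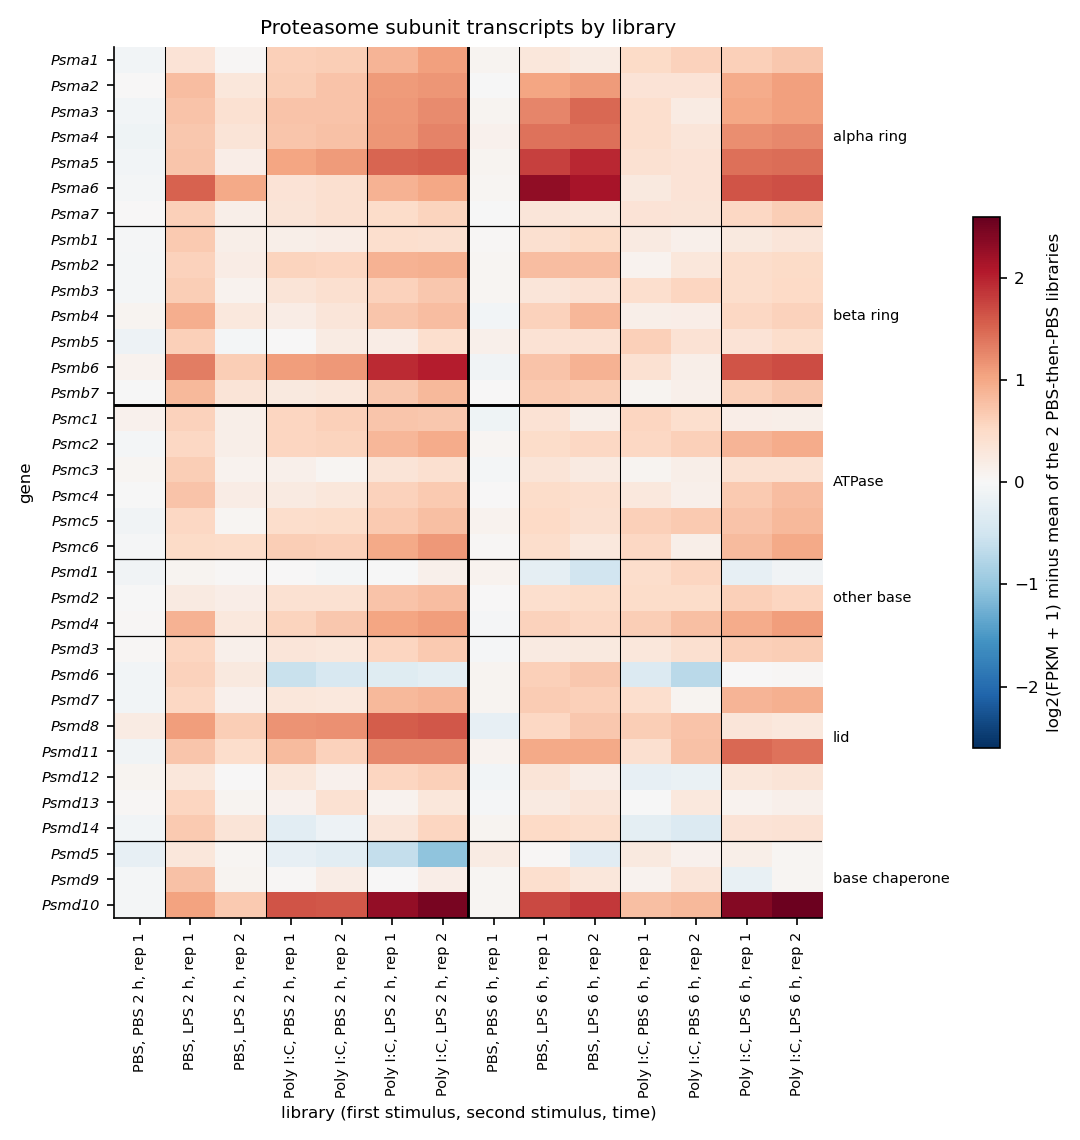
Each member's log2(FPKM + 1) in each of the 14 libraries minus its mean in the 2 PBS-then-PBS libraries, with genes as rows grouped by place in the particle and libraries as columns grouped by first stimulus, second stimulus and time. Psmd10, Psma6, Psma5 and Psmb6 reach the strongest red, Psmd6 is blue in Poly I:C then PBS at both times and in Poly I:C then LPS at 2 h, and Psmd5 is bluest in Poly I:C then LPS at 2 h.

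LPS after PBS was compared with PBS after PBS to follow the response of macrophages that had not met Poly I:C. A member was called when its adjusted p was under 0.05 in limma over all 11977 tested entries, and only called members are said to have risen or fallen. At 2 h, 8 members rose and none fell, where 9.47% of all tested entries rose and 6.39% fell. They were Psma3, Psma4, Psma6 and Psmb6 of the core and Psmd8, Psmd10, Psmd11 and Psmd14 of the regulatory particle. Without replicate 1 of PBS then LPS at 2 h, 5 members rose, and without replicate 2, 28 rose. At 6 h, 9 of 14 core members and 8 of 20 regulatory members rose and Psmd1 fell, against 22.9% of all tested entries higher and 20.6% lower. The median change at 6 h was 0.78 (log2) for the core and 0.39 for the regulatory members, beside 0.02 for all tested entries, and at 2 h it was 0.53, 0.40 and 0.04. Without replicate 2 of PBS then LPS at 6 h, 11 members were called in place of 18, and Psma2 to Psma6, Psmb2, Psmd2, Psmd8, Psmd10 and Psmd11 kept their calls under every alternative. The comparisons of both LPS and Poly I:C with PBS then PBS share its 1 library at each time, so their values are given side by side and are not independent.

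Among macrophages that had met Poly I:C, LPS was compared with PBS as the second stimulus. At 2 h, 5 core and 6 regulatory members rose and Psmd5 fell, where 14% of all tested entries rose and 8.72% fell. The count went from 12 to between 1 and 4 when any of the 4 libraries of this comparison was left out, and Psmd10 alone kept its call under every alternative. At 6 h, 7 core and 9 regulatory members rose, and Psmd1 and Psmd8 fell, where 21.7% of all tested entries rose and 22.2% fell. The core members that rose at 6 h were Psma2 to Psma6, Psmb6 and Psmb7. The median change was 0.48 for all core members and 0.30 for all regulatory members, beside -0.03 for all tested entries. Leaving out replicate 2 of either group gave 12 called members in place of 18, and Psma2 to Psma6, Psmb6, Psmd1, Psmd10, Psmd11, Psmd12 and Psmd14 kept their calls under every alternative.

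Poly I:C was compared with PBS as the first stimulus, with PBS or LPS as the second. Before PBS at 2 h, 7 core and 9 regulatory members rose and none fell, where 24.9% of all tested entries rose and 22.4% fell. The core members were Psma1 to Psma5, Psmb2 and Psmb6. Psma1 to Psma5, Psmb6, Psmc2, Psmc6, Psmd8, Psmd10 and Psmd11 kept their calls under every alternative. At 6 h after the change to PBS, Psma1 was the only core member that rose. With it 9 regulatory members rose (Psmc1, Psmc2, Psmc5, Psmd1, Psmd2, Psmd4, Psmd8, Psmd10 and Psmd11), and Psmd6 fell, against 18.4% of all tested entries higher and 16.1% lower. This count of 11 went to 5 without replicate 2 of Poly I:C then PBS at 6 h and to 6 without replicate 1, and Psmd2, Psmd8 and Psmd10 kept their calls under every alternative.

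Before LPS at 2 h, 7 core members (Psma1 to Psma5, Psmb2 and Psmb6) and 10 regulatory members rose, and Psmd5 and Psmd6 fell, where 32.6% of all tested entries rose and 28.5% fell. The count of 19 became 28 without replicate 1 of PBS then LPS at 2 h and 20 without replicate 2, of which 6 were lower. Before LPS at 6 h, Psma1 and Psmb6 rose among core members and Psma5 and Psma6 fell, while 5 regulatory members rose and Psmd6 fell. Of all tested entries 23.7% rose and 25.9% fell there. The median core change was -0.11 and the median regulatory change 0.22, beside 0.00 for all tested entries. Leaving out any 1 of the 4 libraries of this comparison gave 3 or 4 called members in place of 10, and Psmb6, Psmd10 and Psmd6 kept their calls under every alternative.

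The difference between the LPS response after Poly I:C and the LPS response after PBS was tested as an interaction. At 2 h no member was called in limma, where 2.52% of all tested entries were called higher and 1.77% lower, and 2 members had an unadjusted p under 0.05. Without replicate 1 of PBS then LPS at 2 h 0 members were called, and without replicate 2, 4 were called lower. At 6 h none was called higher and 3 were called lower (Psma6, Psmc1 and Psmd8), against 12.7% of all tested entries higher and 16.7% lower, so the share of members called lower was below the background. Psmd8 kept this call under every alternative, and Psma6 and Psmc1 lost it under several. The median interaction was -0.37 for core and -0.07 for regulatory members, and -0.07 for all tested entries.

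From 2 h to 6 h of LPS after PBS, 6 core members (Psma2 to Psma6 and Psmb2) and 3 regulatory members (Psmd2, Psmd10 and Psmd11) rose and Psmd1 fell. Of all tested entries 23.4% rose and 26% fell. Leaving out libraries of PBS then LPS moved this count of 10 to 19 (without replicate 1 at 2 h), 17 (without replicate 2 at 2 h, of which 10 were lower) and 5 (without replicate 2 at 6 h), and Psma3, Psma4, Psma5, Psma6 and Psmd10 kept their calls. After Poly I:C, Psma6 and Psmd5 rose from 2 h to 6 h of LPS and Psmb2, Psmc1 and Psmd8 fell, against 14.7% of all tested entries higher and 25.3% lower. Leaving out any library of this comparison gave 3 called members in place of 5.

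Over the 8 comparisons of a stimulus with PBS, Psmd10 and Psmd11 rose in all 8, though Psmd11 kept its call under every alternative in 4 of them. These comparisons share groups and are not 8 separate observations. With all libraries in the fit, 7 of the 34 members were called in none of the 12 comparisons. They were Psma7, Psmb1, Psmb3 and Psmb5 of the core and Psmc3, Psmd9 and Psmd13 of the regulatory particle. For these core genes, the lack of a call with LPS after PBS at 2 h depended on replicate 2 of PBS then LPS. The share of all tested entries called in none of the 12 comparisons, or raised in all 8, was not computed. With Poly I:C before LPS at 2 h, Psmb1 and Psmc3 were called higher without replicate 1 of PBS then LPS (0.27 and 0.28) and lower without replicate 2 (-0.24 and -0.28).

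**Figure D3:**
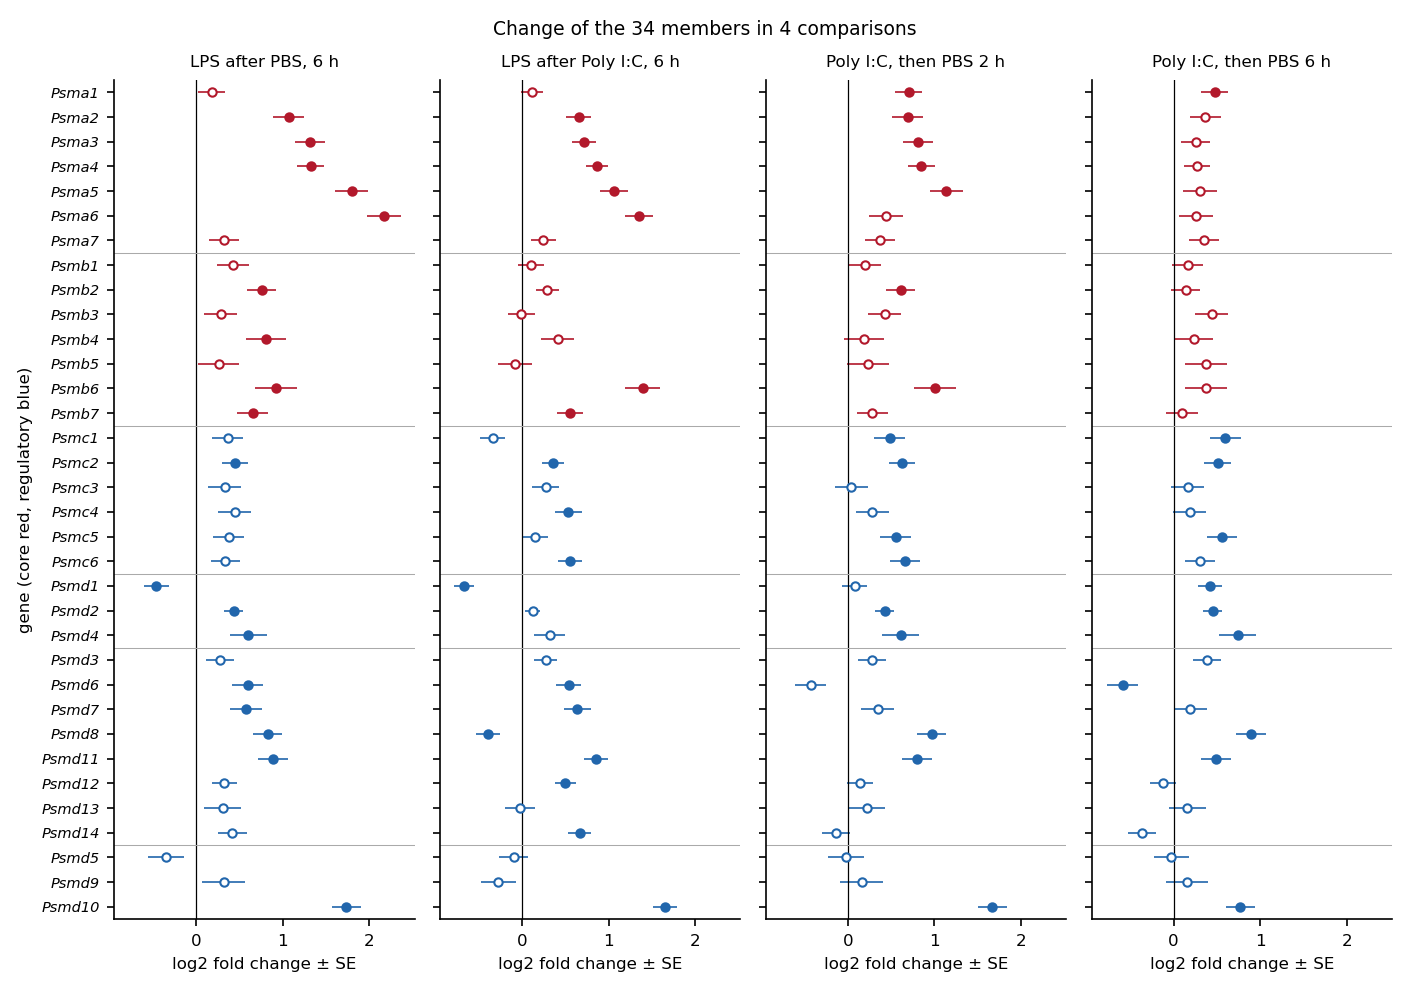
Log2 fold change with its standard error for each of the 34 members (rows) in 4 comparisons (panels), core in red and regulatory in blue; filled points passed an adjusted p of 0.05 in limma and open points did not. For LPS after PBS at 6 h the largest changes are those of Psma6 (2.17), Psma5 (1.80) and Psmd10 (1.73).

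The alpha ring, the gate of the core particle, held the largest core change with LPS after PBS at 6 h, that of Psma6. Psma6 (chromosome 12, 55384222-55418454 on GRCm38) was at 103 FPKM in PBS then PBS at 2 h, 311 and 212 in PBS then LPS, 138 and 143 in Poly I:C then PBS, and 202 and 216 in Poly I:C then LPS. Its 6 h level was 110 FPKM in PBS then PBS, 529 and 472 in PBS then LPS, 127 and 137 in Poly I:C then PBS, and 334 and 343 in Poly I:C then LPS. Its libraries with LPS were above its libraries without LPS at both times, and at 6 h those of PBS then LPS were above those of Poly I:C then LPS without overlap. In limma Psma6 rose by 2.17 ± 0.20 (log2, SE; adjusted p = 1.16e-05) with LPS after PBS at 6 h and by 1.35 ± 0.16 (adjusted p = 7.24e-05) with LPS after Poly I:C. The interaction at 6 h was -0.82 ± 0.25 (limma adjusted p = 0.0353). It was not called without the filter on low values. Nor was it called without any 1 library of PBS then LPS, Poly I:C then PBS or Poly I:C then LPS at 6 h. With Poly I:C before PBS, Psma6 changed by 0.44 ± 0.20 at 2 h and 0.26 ± 0.20 at 6 h, neither of them called.

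Psma5, another alpha subunit, was at 54.9 FPKM in PBS then PBS at 2 h, 96.2 and 65.2 in PBS then LPS, 118 and 126 in Poly I:C then PBS, and 167 and 173 in Poly I:C then LPS. At 6 h its values were 61.1 in PBS then PBS, 202 and 228 in PBS then LPS, 76.5 and 74.8 in Poly I:C then PBS, and 157 and 161 in Poly I:C then LPS. At 2 h the order of the groups followed Poly I:C first and LPS second without overlap, whereas at 6 h PBS then LPS was highest. Psma5 rose by 1.14 ± 0.19 (limma adjusted p = 0.000855) with Poly I:C before PBS at 2 h, and at 6 h the change was 0.30 ± 0.19 (adjusted p = 0.261). With LPS after PBS it changed by 0.52 ± 0.19 at 2 h, not called, and rose by 1.80 ± 0.19 at 6 h (adjusted p = 4.09e-05), a rise of 1.43 ± 0.16 from 2 h to 6 h of LPS.

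Psma2, Psma3 and Psma4 rose with LPS after PBS at 6 h, by 1.07, 1.31 and 1.32 on the log2 scale. With LPS after Poly I:C at 6 h they rose by 0.65, 0.72 and 0.86. These 3 genes also rose with Poly I:C before PBS at 2 h, by 0.69, 0.81 and 0.85, but were not called at 6 h, where their changes were 0.36, 0.25 and 0.27. Psma1 had another course: it rose with Poly I:C in all 4 comparisons, by 0.70 and 0.78 at 2 h and by 0.48 and 0.41 at 6 h, and was called in no comparison of LPS with PBS. Its 6 h calls were lost when any 1 library of a group with 2 in the comparison was left out. Psma7 was between 100.3 and 158 FPKM in all libraries and was called in no comparison with all libraries in the fit. The entry of Psma2 also names AW209491, so its fragments were not separated from that gene.

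Of the 3 constitutive active subunits, Psmb6 moved and Psmb5 passed the test in no comparison with all libraries in the fit. Psmb6 (chromosome 11, 70525367-70527858) was at 234 FPKM in PBS then PBS at 2 h, 556 and 342 in PBS then LPS, 464 and 483 in Poly I:C then PBS, and 840 and 909 in Poly I:C then LPS. After 6 h it was at 205 FPKM in PBS then PBS, 366 and 411 in PBS then LPS, 288 and 243 in Poly I:C then PBS, and 685 and 709 in Poly I:C then LPS. The libraries that received both agonists were the highest at each time and overlapped with no other group. Psmb6 rose by 1.39 ± 0.20 (limma adjusted p = 0.000247) with LPS after Poly I:C at 6 h and by 0.92 ± 0.24 (adjusted p = 0.011) with LPS after PBS. The difference between these responses was 0.47 ± 0.31 (adjusted p = 0.293). Its call with LPS after PBS at 6 h was lost without replicate 2 of PBS then LPS.

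Psmb5 was at 95.7 FPKM in PBS then PBS at 2 h, 161 and 101 in PBS then LPS, 105 and 121 in Poly I:C then PBS, and 119 and 142 in Poly I:C then LPS. The 6 h libraries had 114 in PBS then PBS, 136 and 136 in PBS then LPS, 160 and 136 in Poly I:C then PBS, and 134 and 144 in Poly I:C then LPS. The groups overlapped, apart from the PBS-then-PBS libraries, which were the lowest at each time. With all libraries in the fit, its changes in the 8 comparisons with PBS ran from -0.09 to 0.41 with standard errors of 0.20 to 0.24. That it was not called with LPS after PBS at 2 h depended on replicate 2 of PBS then LPS (101 FPKM, beside 161 in replicate 1). Its entry also names the microRNA gene Mir686. The Psmb5 and Psmb6 promoter stretches above both hold TGACNNNGC, 47 and 9 bases before the start.

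Psmb7 was at 83.9 FPKM in PBS then PBS at 2 h, 151 and 107 in PBS then LPS, 100.3 and 104 in Poly I:C then PBS, and 137 and 152 in Poly I:C then LPS. At 6 h the values were 84.8 in PBS then PBS, 136 and 132 in PBS then LPS, 89.2 and 92.4 in Poly I:C then PBS, and 131 and 137 in Poly I:C then LPS. The LPS libraries were above the PBS libraries at both times, whatever came first. Psmb7 rose with LPS at 6 h by 0.65 ± 0.18 after PBS (limma adjusted p = 0.0145) and by 0.55 ± 0.15 after Poly I:C (adjusted p = 0.0116). Its change with Poly I:C before PBS was 0.28 ± 0.18 at 2 h and 0.10 ± 0.18 at 6 h, not called. The calls with LPS were lost without replicate 1 of PBS then LPS, replicate 1 of Poly I:C then PBS or replicate 2 of Poly I:C then LPS.

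Among the beta subunits without an active site, Psmb2 rose by 0.61 with Poly I:C before PBS at 2 h and by 0.76 with LPS after PBS at 6 h. The first of these calls was lost in a fit of the 2 h libraries alone, and the second held under every alternative. Psmb2 was at 112 FPKM in PBS then PBS at 2 h, 176 and 131 in PBS then LPS, 173 and 170 in Poly I:C then PBS, and 215 and 220 in Poly I:C then LPS. At 6 h it was at 119 in PBS then PBS, 201 and 203 in PBS then LPS, 122 and 141 in Poly I:C then PBS, and 159 and 163 in Poly I:C then LPS. From 2 h to 6 h of LPS it rose by 0.41 ± 0.14 after PBS (limma adjusted p = 0.0316) and fell by 0.43 ± 0.14 after Poly I:C (adjusted p = 0.0304); both calls were lost when either 6 h library of the comparison was left out, the first also without replicate 2 and the second without either library at 2 h. Psmb4 rose by 0.81 ± 0.23 with LPS after PBS at 6 h (adjusted p = 0.0159), a call lost without replicate 2 of PBS then LPS. Psmb1 and Psmb3, at 95.2 to 155 and 99.2 to 168 FPKM, were called in no comparison with all libraries in the fit.

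**Figure D4:**
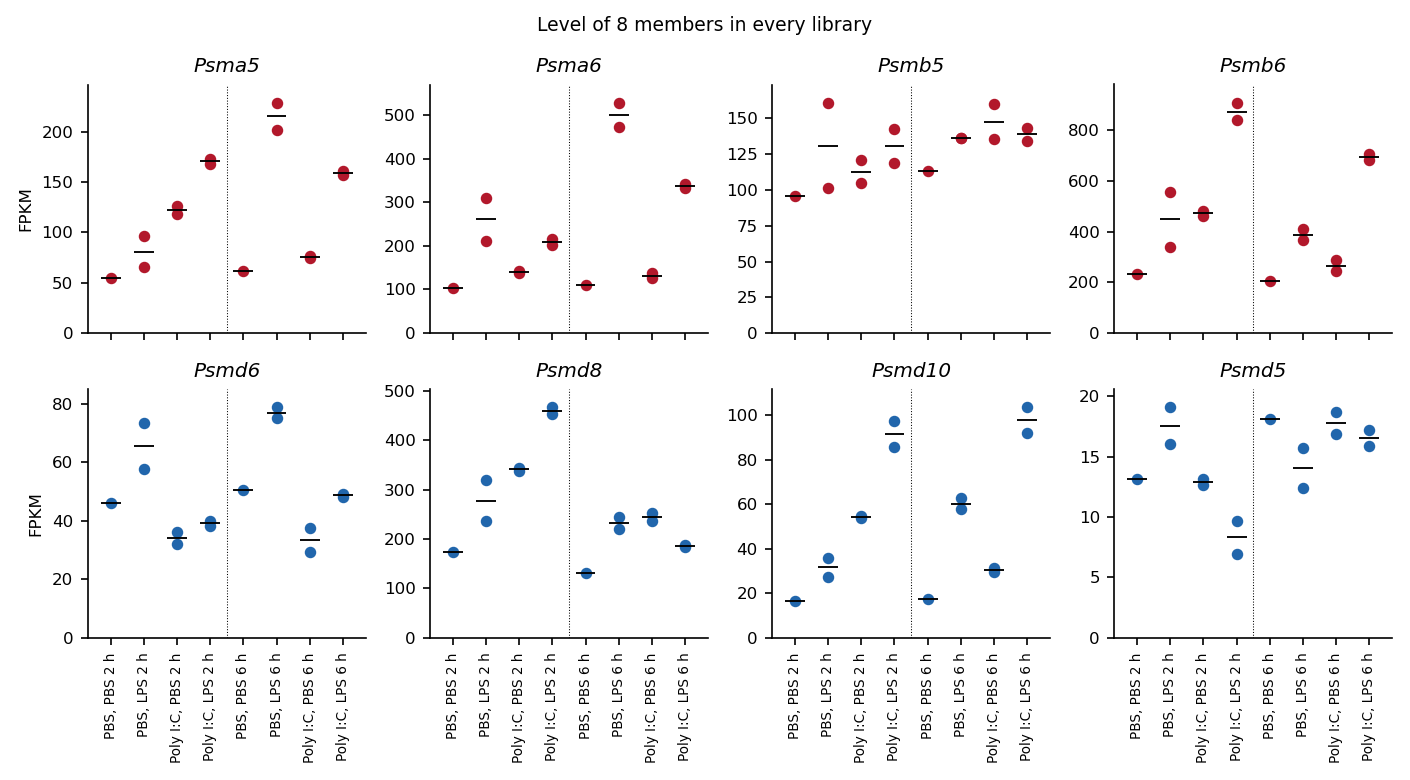
FPKM of 8 members in every library by first stimulus, second stimulus and time, with core members in red, regulatory members in blue, a point for each library and a line at each group mean; the dotted line parts 2 h from 6 h. Psmb6 and Psmd10 are highest where both agonists were given, Psma5 and Psma6 are highest in PBS then LPS at 6 h, and Psmd6 is lower in every library that began with Poly I:C than in those of PBS then LPS.

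Of the 6 ATPases of the base, 4 rose with Poly I:C before PBS at 2 h, where 24.9% of all tested entries rose. They were Psmc1, Psmc2, Psmc5 and Psmc6, which rose by 0.48 to 0.66, with a median of 0.52 over all 6. The calls of Psmc1 and Psmc5 were lost without either library of Poly I:C then PBS. With LPS after PBS at 6 h, 1 of 6 rose (Psmc2, by 0.45), beside 22.9% of all tested entries. This call was lost without either library of PBS then LPS. Psmc2 was called in 6 of the 8 comparisons with PBS, all of them increases. Psmc6 was at 42.6 FPKM in PBS then PBS at 2 h, 62.5 and 60.9 in PBS then LPS, 68.8 and 67.4 in Poly I:C then PBS, and 87.3 and 97.0 in Poly I:C then LPS. Its 6 h level was 45.0, then 60.8 and 53.4, 64.1 and 48.6, and 77.8 and 87.3 in the same order of groups. Its highest libraries were those that received both agonists, at each time. It rose by 0.55 ± 0.14 with LPS after Poly I:C at 6 h (limma adjusted p = 0.00885), a call lost without replicate 2 of either group.

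Psmc1 was at 82.3 FPKM in PBS then PBS at 2 h, 117 and 85.7 in PBS then LPS, 113 and 118 in Poly I:C then PBS, and 127 and 125 in Poly I:C then LPS. After 6 h it was at 71.2 in PBS then PBS, 99.1 and 85.0 in PBS then LPS, 113 and 104 in Poly I:C then PBS, and 85.9 and 85.1 in Poly I:C then LPS. At 6 h its LPS libraries thus lay above the PBS library after PBS and below the PBS libraries after Poly I:C. The changes were 0.36 ± 0.18 and -0.34 ± 0.14, neither of them called, and the interaction was -0.70 ± 0.23 (limma adjusted p = 0.041). This call was lost without replicate 1 of PBS then LPS, either library of Poly I:C then PBS or either library of Poly I:C then LPS. It was also lost under the filter, scaling, trend and pooled PBS control alternatives. Psmc3 was called in no comparison with all libraries in the fit, and other expressed entries, those of Spi1 and Slc39a13, overlap its locus. Expressed entries also overlap the loci of Psma3 (3110056K07Rik), Psmb7 (Nek6), Psmc5 (Gm23645), Psmd1 (Htr2b), Psmd9 (Tmem120b among others) and Psmd13 (Sirt3 among others).

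Of the other base subunits, Psmd2, a scaffold of the base, and Psmd4, a ubiquitin receptor, rose with Poly I:C. Psmd2 rose by 0.43 before PBS at 2 h and by 0.45 at 6 h, each ± 0.11. The call at 2 h was lost in a fit of the 2 h libraries alone, and that at 6 h held under every alternative. Psmd4 was at 58.5 FPKM in PBS then PBS at 2 h, 108 and 69.1 in PBS then LPS, 86.3 and 93.6 in Poly I:C then PBS, and 117 and 122 in Poly I:C then LPS. The 6 h libraries had 55.9 in PBS then PBS, 87.4 and 83.5 in PBS then LPS, 89.7 and 98.5 in Poly I:C then PBS, and 113 and 122 in Poly I:C then LPS. The PBS-then-PBS library was the lowest and the libraries given both agonists the highest at each time. Psmd4 rose by 0.74 ± 0.21 with Poly I:C before PBS at 6 h (limma adjusted p = 0.0235), a call lost without replicate 2 of Poly I:C then PBS.

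Psmd1, another base scaffold, fell with LPS at 6 h. At 2 h it was at 94.9 FPKM in PBS then PBS, 107 and 103 in PBS then LPS, 102 and 98.7 in Poly I:C then PBS, and 101 and 111 in Poly I:C then LPS. At 6 h it was at 109 in PBS then PBS, 86.4 and 71.5 in PBS then LPS, 141 and 151 in Poly I:C then PBS, and 87.2 and 94.9 in Poly I:C then LPS. Only at 6 h were its LPS libraries below its PBS libraries. Psmd1 fell by 0.46 ± 0.14 with LPS after PBS at 6 h (limma adjusted p = 0.0233, lost without replicate 2 of PBS then LPS) and by 0.67 ± 0.12 with LPS after Poly I:C (adjusted p = 0.000916). Its entry also names Armc9 and Gm21972, so these values are those of the merged entry.

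In the lid, Psmd8 was the member whose LPS response at 6 h differed with the first stimulus. Psmd8 (chromosome 7, 29174188-29180701) was at 174 FPKM in PBS then PBS at 2 h, 319 and 236 in PBS then LPS, 338 and 344 in Poly I:C then PBS, and 453 and 467 in Poly I:C then LPS. Its 6 h level was 131 in PBS then PBS, 221 and 245 in PBS then LPS, 236 and 252 in Poly I:C then PBS, and 188 and 184 in Poly I:C then LPS. The group given both agonists was the highest at 2 h, and at 6 h it lay below each group given 1 agonist, without overlap. At 6 h Psmd8 rose by 0.82 ± 0.17 with LPS after PBS (limma adjusted p = 0.00293) and fell by 0.39 ± 0.14 with LPS after Poly I:C (adjusted p = 0.0443). The interaction was -1.22 ± 0.22 (adjusted p = 0.00243), and from 2 h to 6 h of LPS after Poly I:C it fell by 1.30 ± 0.14 (adjusted p = 8.4e-05). The fall with LPS after Poly I:C lost its call when any 1 of its 4 libraries was left out. It also lost it under the filter, scaling, trend and replicate block alternatives. The interaction kept its call under every alternative. No near-identical copy of Psmd8 was found among GENCODE transcripts.

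Psmd6, a lid subunit, was lower where Poly I:C came first. It was at 46.0 FPKM in PBS then PBS at 2 h, 73.3 and 57.7 in PBS then LPS, 31.9 and 36.0 in Poly I:C then PBS, and 38.3 and 40.0 in Poly I:C then LPS. After 6 h it was at 50.5 in PBS then PBS, 75.1 and 78.7 in PBS then LPS, 37.6 and 29.4 in Poly I:C then PBS, and 48.3 and 49.2 in Poly I:C then LPS. At each time every library that began with Poly I:C was below every library that began with PBS. Psmd6 fell with Poly I:C before LPS by 0.72 ± 0.15 at 2 h (limma adjusted p = 0.0017) and by 0.65 ± 0.15 at 6 h (adjusted p = 0.00442). Before PBS the changes were -0.43 ± 0.18 at 2 h, not called, and -0.59 ± 0.18 at 6 h (adjusted p = 0.0284, lost without replicate 2 of Poly I:C then PBS).

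Psmd14, the deubiquitinase of the lid, rose with LPS after Poly I:C by 0.64 ± 0.13 at 2 h (limma adjusted p = 0.0067) and by 0.67 ± 0.13 at 6 h (adjusted p = 0.00236). It was at 47.0 FPKM in PBS then PBS at 2 h, 79.2 and 62.9 in PBS then LPS, 40.4 and 45.2 in Poly I:C then PBS, and 61.8 and 72.7 in Poly I:C then LPS. The 6 h libraries had 51.8 in PBS then PBS, 71.5 and 67.7 in PBS then LPS, 41.5 and 38.4 in Poly I:C then PBS, and 63.4 and 64.7 in Poly I:C then LPS. Its LPS libraries were above its PBS libraries at both times, and it was called in no comparison of Poly I:C with PBS. The call at 2 h was lost without replicate 1 of Poly I:C then PBS or replicate 2 of Poly I:C then LPS.

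Psmd11, a lid subunit, was at 30.3 FPKM in PBS then PBS at 2 h, 54.1 and 45.1 in PBS then LPS, 57.9 and 49.5 in Poly I:C then PBS, and 78.5 and 78.8 in Poly I:C then LPS. At 6 h it was at 34.8, then 65.1 and 65.3, 43.9 and 55.4, and 92.7 and 87.6 in the same order of groups. The PBS-then-PBS library was the lowest and the libraries given both agonists the highest at each time. Psmd11 rose in all 8 comparisons with PBS, from 0.46 to 0.89. The calls with Poly I:C at 2 h and with LPS at 6 h held under every alternative. The call with LPS after PBS at 2 h was lost without replicate 1 of PBS then LPS, and that with LPS after Poly I:C at 2 h without replicate 2 of Poly I:C then PBS or either library of Poly I:C then LPS. Of the calls with Poly I:C at 6 h, that before PBS was lost without replicate 2 of Poly I:C then PBS and that before LPS without any 1 of its 4 libraries. A near-identical copy, A730017L22Rik, was at 9.11 FPKM, and how fragments were shared between them is not given in the sources used here. Psmd7 rose with LPS at 6 h after PBS (0.57) and after Poly I:C (0.64), and Psmd12 with LPS after Poly I:C at both times (0.39 and 0.50). The Psmd7 calls were lost without either library of PBS then LPS or without replicate 2 of Poly I:C then PBS, and the Psmd12 call at 2 h without any 1 of its 4 libraries. Psmd3 was called in a single comparison, Poly I:C before LPS at 6 h (0.38 ± 0.13), and lost that call without any 1 of the 4 libraries. Psmd13 was called in no comparison with all libraries in the fit.

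The 3 assembly chaperones of the base followed different courses. Psmd10 (gankyrin; chromosome X, 140948429-140956728) was at 16.4 FPKM in PBS then PBS at 2 h, 35.8 and 27.4 in PBS then LPS, 54.6 and 53.8 in Poly I:C then PBS, and 85.9 and 97.3 in Poly I:C then LPS. At 6 h it was at 17.4 in PBS then PBS, 57.6 and 62.7 in PBS then LPS, 29.6 and 31.1 in Poly I:C then PBS, and 91.9 and 104 in Poly I:C then LPS. No groups of 1 time overlapped, and the order of Poly I:C alone and LPS alone was the opposite at 6 h from that at 2 h. Psmd10 rose by 1.67 ± 0.17 with Poly I:C before PBS at 2 h (limma adjusted p = 2.38e-05) and by 0.77 ± 0.17 at 6 h (adjusted p = 0.00547). With LPS after PBS it rose by 0.90 ± 0.17 at 2 h and by 1.73 ± 0.17 at 6 h (adjusted p = 1.8e-05). Its interaction was -0.15 ± 0.22 at 2 h and -0.08 ± 0.22 at 6 h, not called. The calls of Psmd10 in the 8 comparisons with PBS held under every alternative.

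Psmd5 was at 13.2 FPKM in PBS then PBS at 2 h, 19.1 and 16.1 in PBS then LPS, 13.2 and 12.7 in Poly I:C then PBS, and 9.65 and 6.95 in Poly I:C then LPS. Its 6 h level was 18.1 in PBS then PBS, 15.7 and 12.4 in PBS then LPS, 18.7 and 16.9 in Poly I:C then PBS, and 17.2 and 15.9 in Poly I:C then LPS. The group given both agonists was the lowest at 2 h, and at 6 h it overlapped with Poly I:C then PBS. Psmd5 fell by 1.01 ± 0.17 with Poly I:C before LPS at 2 h (limma adjusted p = 0.000462). It rose by 0.93 ± 0.17 from 2 h to 6 h of LPS after Poly I:C (adjusted p = 0.00173). Both comparisons use the same 2 libraries of Poly I:C then LPS at 2 h. Psmd9, the other chaperone, was between 17.7 and 34.8 FPKM and was called in no comparison with all libraries in the fit.

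The immunoproteasome subunits that replace Psmb6, Psmb7 and Psmb5 rose with either agonist alone, though with LPS all 3 did so only at 6 h. With LPS after PBS at 2 h their changes were 0.80 to 0.96, and 1 of the 3 was called, where 9.47% of all tested entries rose. Psmb8, Psmb9 and Psmb10 rose by 3.28, 3.66 and 3.16 (log2) with Poly I:C before PBS at 2 h and by 3.44, 3.64 and 3.92 with LPS after PBS at 6 h, where the largest change of a constitutive member was 1.67 (Psmd10) and 2.17 (Psma6). With LPS after Poly I:C they changed by 0.34, 0.17 and 0.29 at 2 h, none of them called, and by 0.57, 0.61 and 0.58 at 6 h, of which that of Psmb9 was called, beside rises of 0.88 and 1.39 for Psmb6. Psmb9, which replaces Psmb6, was at 24.3 FPKM in PBS then PBS at 2 h, 62.8 and 37.1 in PBS then LPS, 311 and 329 in Poly I:C then PBS, and 347 and 372 in Poly I:C then LPS. The FPKM ratio of Psmb6 to Psmb9 was 9.62 in PBS then PBS at 2 h, 8.85 and 9.20 in PBS then LPS, and 1.49 and 1.47 in Poly I:C then PBS. In Poly I:C then LPS at 2 h the ratio was 2.42 and 2.44, above that of Poly I:C then PBS in both libraries. At 6 h it was 11.6 in PBS then PBS, 1.78 and 1.57 in PBS then LPS, 1.72 and 1.56 in Poly I:C then PBS, and 2.79 and 2.85 in Poly I:C then LPS. The ratio of Psmb5 to Psmb8 was 0.878 in PBS then PBS at 2 h and 1.33 at 6 h, and 0.0924 to 0.110 in the libraries of Poly I:C at 2 h. The Psmb8 entry also names Tap1 and that of Psmb10 names Ctrl, so ratios with them are those of merged entries.

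Other regulators of the core, which compete with the regulatory particle for its ends, split by gene. Psme1 and Psme2, which form an interferon-induced cap, rose by 2.53 and 3.22 with Poly I:C before PBS at 2 h and by 2.84 and 3.32 with LPS after PBS at 6 h. Psme4 rose by 1.19 and 1.39 in these comparisons. Psme3, which forms a nuclear cap, was called in none of the 12 comparisons. Of the 5 chaperones of core assembly, Pomp rose with LPS after PBS at 6 h (0.91), where Psmg2 fell by 0.68. With Poly I:C before LPS at 2 h, Psmg1, Psmg2 and Psmg3 fell by 1.44, 0.87 and 0.65, where 7 of 14 core subunits rose and 32.6% of all tested entries rose and 28.5% fell. In the libraries of PBS then LPS at 2 h, Psmg1 was at 14.9 and 9.09 FPKM, Psmg2 at 14.9 and 12.9 and Psmg3 at 22.9 and 14.7. The Psmg3 entry also names Gm26938 and Tmem184a.

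Of 14 proteasome-bound factors, 5 rose and 5 fell with Poly I:C before PBS at 2 h, where 24.9% of all tested entries rose and 22.4% fell. Adrm1, a ubiquitin receptor, rose by 0.47 and Zfand5, a proteasome activator, by 1.37, while the deubiquitinases Usp14 and Uchl5 fell by 0.84 and 0.57. With LPS after PBS at 6 h, 1 of the 14 rose (Zfand5, by 1.88) and 6 fell, among them Ubqln2 by 1.45, against 22.9% of all tested entries higher and 20.6% lower. With Poly I:C before LPS at 6 h, 6 rose and 1 fell, against 23.7% and 25.9%.

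Of 8 genes of the transcriptional control of proteasome genes, 4 rose and 2 fell with Poly I:C before PBS at 2 h, beside the same 24.9% and 22.4% of all tested entries. The merged entry of Nfe2l1 and Gm11517 was at 53.4 FPKM in PBS then PBS at 2 h, 71.8 and 88.4 in PBS then LPS, 237 and 200 in Poly I:C then PBS, and 260 and 268 in Poly I:C then LPS. Every library that began with Poly I:C was above every library that began with PBS at 2 h. It rose by 2.01 with Poly I:C before PBS and by 1.72 before LPS at 2 h, and by 1.24 and 1.55 at 6 h. With LPS after PBS it changed by 0.57 at 2 h and 0.28 at 6 h, not called. The part of Nfe2l1 in the changes of the members was not tested. The merged entry of Ddi2, the protease that activates the Nfe2l1 protein, and Rsc1a1 fell by 1.61 with LPS after PBS at 2 h and by 0.68 with Poly I:C before PBS at 2 h. Among genes of ubiquitin and its activation, Uba1, which encodes a ubiquitin-activating enzyme, rose by 1.14 with LPS after PBS at 6 h. With Poly I:C before PBS at 2 h, the polyubiquitin gene Ubb rose by 1.37 and the ubiquitin-ribosomal fusion gene Rps27a fell by 1.02.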

How the data were processed

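Polyadenylated RNA of 14 macrophage libraries was read as stranded paired reads of 76 bp. Per the labels, the authors' deposited values are FPKM from TopHat2, Cufflinks and Cuffnorm, with no versions or scaling method given. The submitters' processing notes name mm9, but of 33853 entries that name 1 GENCODE M21 gene, 33796 overlap that gene on GRCm38, so positions are given as GRCm38. Groups follow the labels. FPKM was transformed as log2(FPKM + 1), so fold changes of low genes are understated, and 11977 entries with a gene name that reached 1 FPKM in 2 or more libraries were fitted in limma 3.58.1 (R 4.3.3) with 1 mean per group, an intensity trend and Benjamini-Hochberg adjustment over all of them; groups with 1 library take their spread from the others. The fit was tested on simulated data. Near-identical copies were sought with BLAST 2.17.0. The members and gene lists were chosen with earlier results of these data known. Values in every library are given for Psmb5, Psmb6, Psmb7, the highest and lowest member of each particle and the 3 largest called increases and decreases of each comparison; of other lists, up to 4 called genes. The table holds no counts, which leaves depth unknown, so no counting interval is given and the number of libraries limits precision. Alternatives were the pseudocount, the filter, the scaling, the trend, 1 time alone, pooled PBS controls, a replicate block and summed entries. A further alternative left out in turn each library of the groups with 2. The PBS-then-PBS libraries were never left out, so no call was tried without its PBS-then-PBS library. Some genes of the other lists are not reported here.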

Additional observations from a re-analysis of the deposited data

Results flagged for a closer look

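For 3 members the LPS response at 6 h differed between macrophages that had met Poly I:C and those that had met PBS, by a test of the difference itself (the interaction in limma). The interaction was -1.22 (log2) for the lid subunit Psmd8, -0.82 for the alpha subunit Psma6 and -0.70 for the ATPase Psmc1. Psmd8 and Psmc1 were higher with LPS after PBS and lower with LPS after Poly I:C. For Psmc1 neither change was called, and the fall of Psmd8 lost its call under several alternatives. Psma6 was higher in both cases and by less after Poly I:C. All 3 tests rest on the same 1 library of PBS then PBS at 6 h. The 3 calls, of 34 members, stand beside 16.7% of all tested entries called lower and 12.7% called higher. Psmd8 kept its call under every alternative, none of which left out the PBS-then-PBS library of 6 h. Psma6 and Psmc1 lost theirs without single libraries of PBS then LPS, Poly I:C then PBS or Poly I:C then LPS at 6 h. Both also lost them without the filter on low values, and Psmc1 under the scaling, trend and pooled PBS control alternatives.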

How the results depend on the processing

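Of 130 called member results, 65 kept call and direction under every alternative and 65 lost the call under at least 1; none of them reversed. The number of called members without a filter on low values was 5 in place of 8 for LPS after PBS at 2 h, 7 in place of 12 for LPS after Poly I:C at 2 h and 6 in place of 11 for Poly I:C before PBS at 6 h. With the libraries of 1 time alone it was 2 for LPS after PBS at 2 h, 3 for LPS after Poly I:C at 2 h, 18 in place of 10 for Poly I:C before LPS at 6 h and 6 in place of 3 for the 6 h interaction. With the PBS-then-PBS libraries of 2 h and 6 h pooled it was 14 for LPS after PBS at 2 h and 5 for the 6 h interaction. The cause was not tested. The other counts kept within 1.5 times their main value under the pseudocount, scaling, trend and summed-entry alternatives.

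Like-numbered replicates did not deviate together (correlations of -0.19 to 0.08 over 15 pairs of groups), so the numbers were not used as pairs; with a replicate block 1 member was called for the 2 h interaction and 7 in place of 11 for Poly I:C before PBS at 6 h.

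The PBS-then-PBS libraries, 1 per group, were not left out. With each other library left out in turn, the lone sample of a group is assumed to vary like the others. The number of called members then ran from 5 to 28 for LPS after PBS at 2 h and 11 to 14 at 6 h, from 1 to 4 for LPS after Poly I:C at 2 h and 12 to 15 at 6 h, at 13 for Poly I:C before PBS at 2 h and from 5 to 6 at 6 h, from 15 to 28 for Poly I:C before LPS at 2 h and 3 to 4 at 6 h, from 0 to 4 for the interaction at 2 h and 1 to 2 at 6 h, from 5 to 19 for 6 h against 2 h of LPS after PBS, and at 3 after Poly I:C. The core minus regulatory difference of PBS then LPS at 2 h was 0.83 to 1.06. Leaving out replicate 1 or 2 of PBS then LPS at 2 h, the change of Psmd4 from 2 h to 6 h of LPS ran from -0.34 to 0.30 (main value -0.02), and with Poly I:C before LPS at 2 h that of Psmb1 ran from -0.24 to 0.27 (main value 0.01) and that of Psmc3 from -0.28 to 0.28 (main value 0.00); each of these lowest and highest values was called.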
